A study of Homo sapiens with 2 samples.

Results

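The core extracellular matrix genes were described in 2 expression arrays of Huh-7, a human line grown from a hepatocellular carcinoma. One array held total RNA of cells given siRNA against DEPDC1, and the other held RNA of cells given NC, the control as it is named in the labels. Both were collected 72 h after transfection. Neither array carried a further treatment in the labels, and the sequence and number of the siRNAs are not given in the sources used here. The set comprised every gene whose symbol in the platform annotation begins as a collagen, laminin, fibrillin, fibulin, thrombospondin or tenascin symbol does, together with NID1, NID2, LUM, DCN, BGN, FMOD, VCAN, HSPG2, AGRN, EFEMP1, EFEMP2, LOX and POSTN. This gave 84 of the 18417 genes with a probe set of their own. The set was chosen by gene names with its siRNA minus NC differences already known, so all values below describe these 2 arrays and none was tested.

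The matrix is a scaffold of secreted proteins outside the cell. Fibrillar collagens form its cables, fibril-associated collagens and small leucine-rich proteoglycans coat and space them, and fibrillins build the microfibrils that carry elastic tissue and store TGF-beta. Laminins, type IV collagens, nidogens and the proteoglycans perlecan and agrin assemble into the basement membrane under epithelia. In liver, most fibrillar collagen comes from stellate cells, while hepatocytes face a sparse matrix without a continuous basement membrane.

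Values are log2 expression as deposited, and differences are siRNA minus NC. A gene counted as detected where at least 1 array gave 4.66 or more, which is the median over every probe set of the 2 arrays. Neither group has a replicate, so no difference could be checked against replicate error, no p-value is given, and a fold of 2 serves only as a fixed size for counting. As a gauge of the scatter between probe sets only, differences of separate detected probe sets of 1 gene had a pooled SD of 0.168 over 444 genes. All come from the same 2 arrays, so this SD holds no variation between arrays, transfections or cultures. Probe sets with identical values were not left out of it. The siRNA target, DEPDC1 (probe set 7916898), had 5.15 in the siRNA array and 7.82 in the NC array, 6.37-fold lower. Of 9 measured hepatocyte markers, 8 reached the detection threshold in the siRNA array and all 9 did in the NC array. Their median difference was -1.09, and 5 of the 9 were at least 2-fold lower as measured. AHSG was among the 5 with 4.19 in the siRNA array, under the threshold, and 5.52 in the NC array. Its fold is a bound, at least 1.82-fold lower.

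Of the 84 genes, 57 were detected. Among these, 8 were at least 2-fold higher in the siRNA array and none was at least 2-fold lower. Over all 11352 detected genes, 1.94% passed 2-fold on the higher side and 0.863% on the lower side, and nothing is read from that contrast because the set was picked on it. The 8 were COL12A1, LUM, FBN1, FBN2, LAMA4, FMOD, COL4A6 and COL1A2. At 1.5-fold, 14 detected members were higher and 0 lower, beside 6.03% and 3.74% of all detected genes. The 5 members COL12A1, COL4A6, FMOD, LAMA4 and COL28A1 lay under the threshold in the NC array and counted as detected only through the siRNA array, so they had to differ. The median difference was 0.18 over the 57, against 0.00 over all detected genes, and it is no measure of the 27 undetected members, whose differences ran from -0.24 to 0.59.

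**Figure D1:**
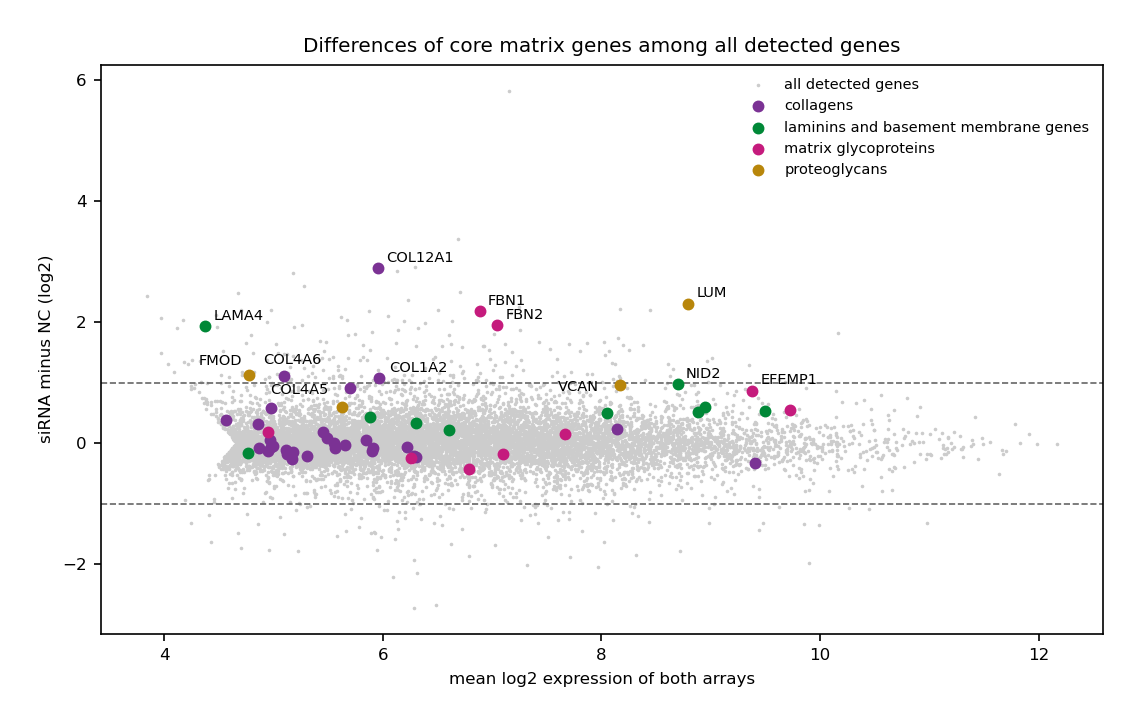
Difference (siRNA minus NC, log2) against the mean log2 expression of both arrays, with 1 point per gene. Grey points are all detected genes, coloured points the 53 detected genes that encode matrix proteins, and dashed lines mark 2-fold. The 8 members above the upper line span differences from 1.07 (COL1A2) to 2.90 (COL12A1), and none lies below the lower line.

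The pattern also took in 5 genes that encode no matrix protein. TNRC6A, TNRC6B and TNRC6C act in microRNA silencing, TNRC18 is a trinucleotide repeat gene, and COL18A1-AS1 is an antisense RNA. Their 4 detected members differed by -0.29 (TNRC6A), 0.30 (TNRC6B), -0.48 (TNRC6C) and 0.22 (TNRC18), and COL18A1-AS1 was under the threshold in both arrays. The 4 probe sets of TNRC18 did not share a sign, with differences between -0.10 and 0.25. The remaining 79 genes encode matrix proteins or the cross-linking enzyme LOX, and 53 of them were detected.

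The largest differences fell on a fibril-associated collagen, a proteoglycan and both detected fibrillins. COL12A1 (probe set 8127563, chromosome 6), whose product links collagen fibrils to the surrounding matrix, had 7.40 in the siRNA array and 4.50 in the NC array. The NC value was under the threshold, so its fold is a bound, at least 6.70-fold higher. LUM (probe set 7965403, chromosome 12), the keratan sulfate proteoglycan lumican that regulates collagen fibril spacing, had 9.95 in the siRNA array and 7.64 in the NC array, which is 4.95-fold higher. FBN1 (probe set 7988467, chromosome 15), the main fibrillin of adult microfibrils, had 7.98 against 5.79 in the NC array, 4.55-fold higher. FBN2 (probe set 8113800, chromosome 5), the fibrillin of developing tissue, had 8.02 against 6.07 in the NC array, 3.88-fold higher. The third family member, FBN3, stayed under the threshold in both arrays at 4.28 (siRNA) and 4.42 (NC).

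Promoter sequence is shown for COL12A1, FBN1 and FBN2, members with some of the largest differences, from RefSeq on GRCh38.p14. Each window holds the 250 bases before the annotated start, read 5′ to 3′ on the gene's own strand, which is the minus strand for all of them: chr6:75206054-75206303 for COL12A1, chr15:48644971-48645220 for FBN1 and chr5:128538246-128538495 for FBN2. Capitals mark matches, on either strand, to the TATA box motif TATAAA, the CCAAT box motif CCAAT, the AP-1 motif TGANTCA or the TEAD motif GGAATG. No matches overlap in these windows.
COL12A1: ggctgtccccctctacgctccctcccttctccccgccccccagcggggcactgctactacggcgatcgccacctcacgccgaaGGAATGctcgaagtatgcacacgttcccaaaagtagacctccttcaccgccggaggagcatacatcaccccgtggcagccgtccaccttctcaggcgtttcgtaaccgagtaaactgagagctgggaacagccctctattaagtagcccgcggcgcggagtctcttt
FBN1: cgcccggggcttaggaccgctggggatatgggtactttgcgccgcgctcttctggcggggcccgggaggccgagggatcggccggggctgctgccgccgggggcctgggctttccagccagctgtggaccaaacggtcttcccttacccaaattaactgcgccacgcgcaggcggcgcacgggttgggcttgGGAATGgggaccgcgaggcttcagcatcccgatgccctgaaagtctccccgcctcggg
FBN2: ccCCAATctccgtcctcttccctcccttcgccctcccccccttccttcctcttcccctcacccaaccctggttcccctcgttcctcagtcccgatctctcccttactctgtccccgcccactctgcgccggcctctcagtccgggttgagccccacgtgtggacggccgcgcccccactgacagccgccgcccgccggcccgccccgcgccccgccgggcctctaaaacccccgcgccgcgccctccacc

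COL12A1 held GGAATG with its first base 167 bases before the start, and FBN1 held it 58 bases before the start. FBN2 held 1 CCAAT, beginning 248 bases before the start. Among all 35116 windows of this length in the table, 11.9% held GGAATG, 32.0% CCAAT, 10.7% TATAAA and 6.57% TGANTCA. Of the 84 members, 65 had a window. GGAATG was found in 10 of these 65 genes, CCAAT in 26, TATAAA in 11 and TGANTCA in 3. A gene counted where any of its windows held the motif, while the shares above are per window. Genes with several windows had more chances to match, so these counts cannot be set against those shares. Among the 8 genes at least 2-fold higher, 6 had a window. COL12A1 and FBN1 held GGAATG, COL4A6, FBN2 and FMOD held CCAAT, FMOD also held TATAAA, and none of the 6 held TGANTCA. A match is a description of letters and not a measured site, and LUM and COL1A2 were not searched here.

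**Figure D2:**
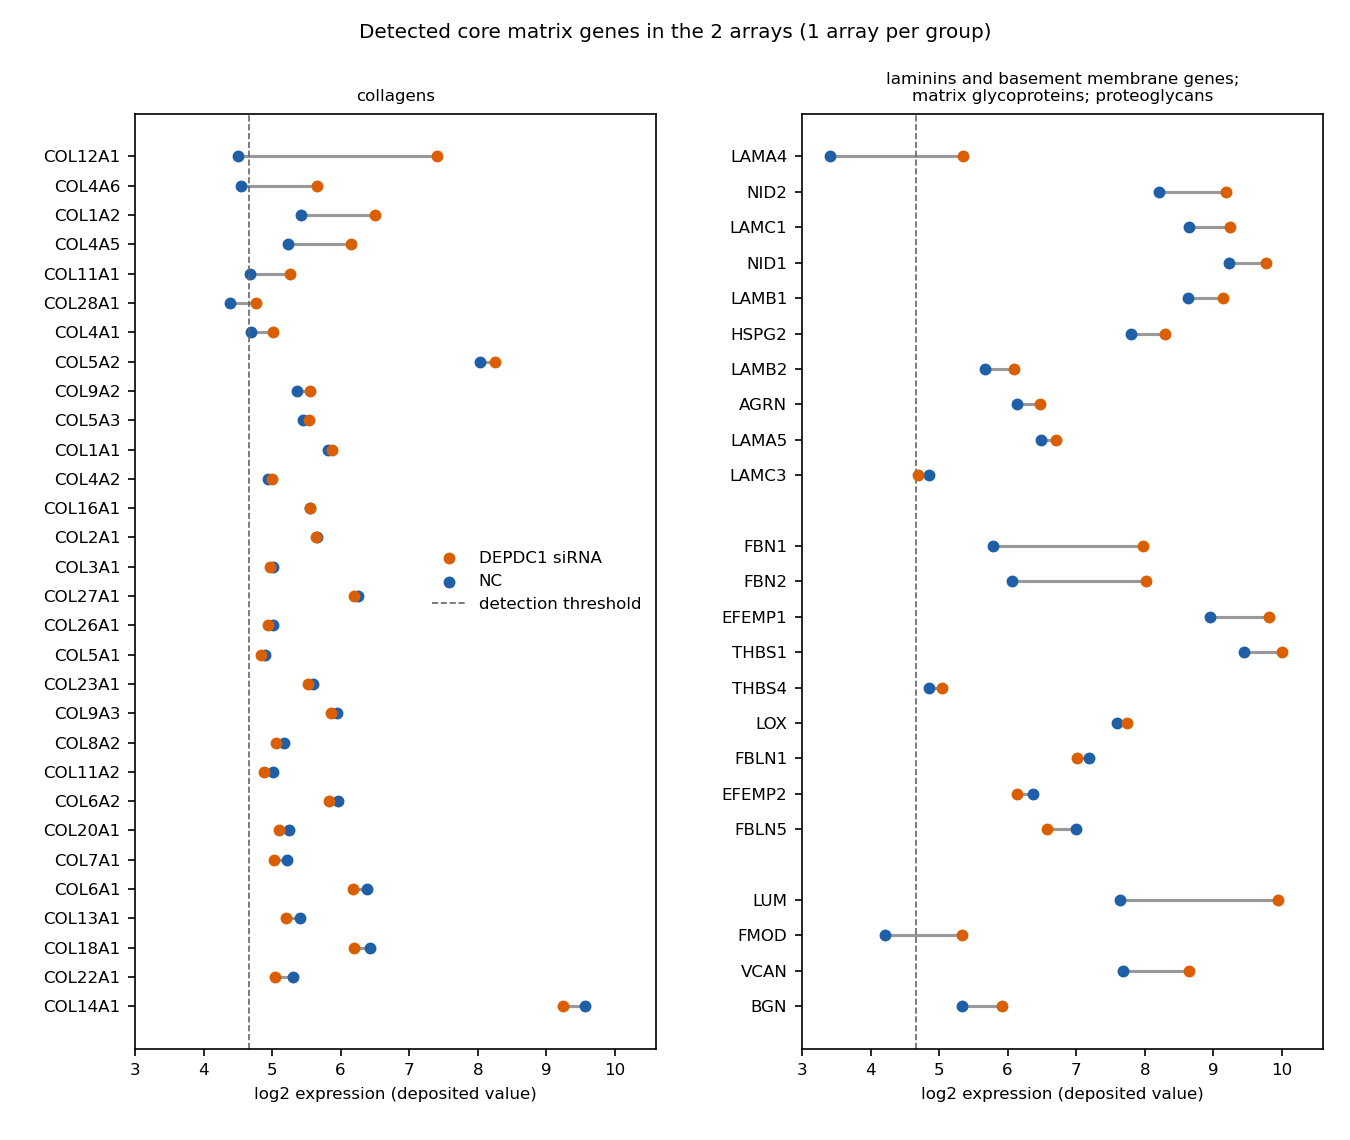
Log2 expression of the 53 detected genes that encode matrix proteins, 1 gene per line and 1 array per group, with the DEPDC1 siRNA array in orange and the NC array in blue. The left panel holds the 30 collagens, most of them with nearly coincident points. The right panel holds laminins and basement membrane genes at the top, then glycoproteins, then proteoglycans, with the siRNA point to the right for 19 of 23 genes. LAMA4 and FMOD are among these and had to be, as only the siRNA array made them detected. The dashed line is the detection threshold of 4.66.

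Most collagens differed little. Of 43 collagen genes, 30 were detected, 12 with a higher value in the siRNA array, 17 with a lower value and 1 with equal values. Their median difference was -0.05, and 3 were at least 2-fold higher. Besides COL12A1 these were COL1A2 and COL4A6. COL12A1, COL4A6 and COL28A1 counted as detected only through the siRNA array, so they had to be higher. Apart from COL12A1, the 6 other detected fibril-associated collagens differed by -0.32 to 0.19. COL14A1, a close relative of COL12A1, had 9.25 in the siRNA array and 9.57 in the NC array, a difference of -0.32 and so of the opposite sign. COL9A2, COL9A3, COL16A1, COL20A1 and COL22A1 differed by 0.19, -0.08, 0.00, -0.14 and -0.27.

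Among the fibrillar collagens, the chains of type I collagen did not differ alike. COL1A2, its second chain, had 6.50 in the siRNA array and 5.43 in the NC array, 2.10-fold higher. COL1A1, the chain present in more copies in the same triple helix, had 5.87 in the siRNA array and 5.81 in the NC array, a difference of 0.06. COL11A1, a regulator of fibril diameter best known from cartilage, had 5.26 against 4.68 in the NC array, a difference of 0.58. COL5A2, a minor fibril chain, had 8.26 against 8.03, a difference of 0.23. COL3A1, the chain of type III collagen, differed by -0.04. The remaining detected fibrillar collagens, COL2A1, COL5A1, COL5A3, COL11A2 and COL27A1, ran from -0.13 to 0.09, all within the pooled SD between probe sets of a gene.

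COL11A2 was the 1 collagen with several probe sets of its own, and they differed in sign. The brightest gave -0.13, and the others gave 0.16 with identical values, both under the threshold in either array. COL1A2 also had a probe set shared with PNLIP, which was not used for it. This shared probe set had 2.65 in the siRNA array and 2.44 in the NC array, under the threshold in both. The chains of type VI collagen, a beaded filament collagen, were slightly lower where detected. COL6A1 had 6.19 in the siRNA array and 6.39 in the NC array, and COL6A2 had 5.83 against 5.97. COL6A3, COL6A5 and COL6A6 were undetected. Of the other collagens, COL7A1, which forms the anchoring fibrils of skin, differed by -0.18. The transmembrane collagens COL13A1 and COL23A1 differed by -0.21 and -0.08, COL8A2 by -0.11 and COL26A1 by -0.06. COL28A1 had 4.76 in the siRNA array and 4.38 in the NC array, at least 1.07-fold higher against the threshold. COL8A1, COL9A1, COL10A1, COL19A1, COL21A1, COL24A1 and COL25A1 were undetected. Values of all 27 undetected members lay between 2.27 and 4.64.

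Genes of the basement membrane lay mostly on the higher side. Of 14 laminins, nidogens, perlecan and agrin, 10 were detected, 9 with a higher value in the siRNA array and 1 with a lower one. Their median difference was 0.51, with 1 gene at least 2-fold higher. LAMA4, the laminin chain of vascular and muscle basement membranes, had 5.35 in the siRNA array and 3.41 in the NC array. LAMA4 counted as detected only through the siRNA array, so it had to be higher. Against the threshold it was at least 1.61-fold higher, while its measured difference was 1.94. LAMA5, the other detected alpha chain, had 6.71 against 6.49 in the NC array, a difference of 0.22. The undetected alpha chains LAMA1 and LAMA2 lay between 3.21 and 3.60 in both arrays.

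The beta and gamma chains that pair with both of these alpha chains were moderately higher. LAMB1 had 9.13 in the siRNA array and 8.63 in the NC array, and LAMC1 had 9.25 against 8.65, differences of 0.51 and 0.60. LAMB2, the beta chain of neuromuscular and kidney basement membranes, had 6.09 against 5.66 in the NC array, a difference of 0.43. LAMC3, a gamma chain, had 4.69 against 4.85, both close to the threshold. Its difference of -0.16 was the 1 lower value among the detected genes of the class. LAMB3 and LAMB4 were undetected. NID2, a nidogen that bridges laminin and type IV collagen, had 9.18 in the siRNA array and 8.21 in the NC array, 1.97-fold higher and next below the 2-fold limit. Its relative NID1 had 9.77 against 9.23, a difference of 0.54. Of the heparan sulfate proteoglycans, HSPG2 (perlecan) had 8.30 against 7.79, and AGRN (agrin) had 6.47 against 6.13, differences of 0.51 and 0.34.

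Of the type IV collagens, the network formers of the basement membrane, the X-linked chains differed most. COL4A6 had 5.65 in the siRNA array and 4.54 in the NC array, at least 1.99-fold higher against the threshold. COL4A5, which assembles with it, had 6.15 against 5.24 in the NC array, 1.89-fold higher. The widespread chains COL4A1 and COL4A2 had 5.02 and 4.99 in the siRNA array and 4.697 and 4.95 in the NC array, differences of 0.32 and 0.05. COL4A3 and COL4A4 were undetected, at 4.13 to 4.37 in the siRNA array and 4.33 to 4.45 in the NC array. COL18A1, the source of endostatin, had 6.19 against 6.42, a difference of -0.23, and its relative COL15A1 was undetected.

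COL4A6 and COL4A5 lie head to head, with their nearest annotated starts 380 bases apart, so their upstream windows read the same DNA from opposite strands. The windows of 250 bases are shown because both genes were higher: chrX:108439459-108439708 on the minus strand for COL4A6 and chrX:108439588-108439837 on the plus strand for COL4A5, both RefSeq on GRCh38.p14. They share 121 bases. Capitals mark CCAAT on either strand, and the other motifs above had no match.
COL4A6: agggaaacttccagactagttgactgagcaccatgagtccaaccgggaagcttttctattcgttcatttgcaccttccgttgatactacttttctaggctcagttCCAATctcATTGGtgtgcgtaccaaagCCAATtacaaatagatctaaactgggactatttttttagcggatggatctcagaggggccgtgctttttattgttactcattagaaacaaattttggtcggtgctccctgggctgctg
COL4A5: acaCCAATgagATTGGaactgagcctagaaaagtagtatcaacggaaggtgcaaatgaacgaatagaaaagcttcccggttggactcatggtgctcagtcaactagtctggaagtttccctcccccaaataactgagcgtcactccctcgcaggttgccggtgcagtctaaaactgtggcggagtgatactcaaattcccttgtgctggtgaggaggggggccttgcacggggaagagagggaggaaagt

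The COL4A6 window held 3 CCAAT matches and the COL4A5 window 2, and these 2 were the same stretches of DNA seen from both sides. COL4A1 and COL4A2 are also head to head, with starts 127 bases apart, as are COL4A3 and COL4A4, with starts 419 bases apart. The 3 type IV pairs share this arrangement, with differences of 1.11 and 0.92 for COL4A6 and COL4A5, 0.32 and 0.05 for COL4A1 and COL4A2, and -0.08 and -0.20 for the undetected COL4A3 and COL4A4.

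In the RefSeq table, 9 pairs of members were next to each other among protein-coding genes. LUM and DCN are neighbours on chromosome 12 in a cluster of small leucine-rich proteoglycans, with KERA and EPYC beyond LUM. EPYC (epiphycan) had 5.69 in the siRNA array and 4.63 in the NC array, at least 2.05-fold higher against the threshold. KERA (keratocan) had 2.51 in the siRNA array and 2.42 in the NC array, under the threshold in both. LUM is described above at a difference of 2.31, and DCN (decorin), the dermatan sulfate proteoglycan best known from tendon and skin, had 2.49 against 2.33 in the NC array. So LUM and EPYC were higher, and KERA, which lies between them, and DCN were undetected. EPYC counted as detected only through the siRNA array, so it had to be higher. EPYC and KERA are not members and were added from a list of other proteoglycans.

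**Figure D3:**
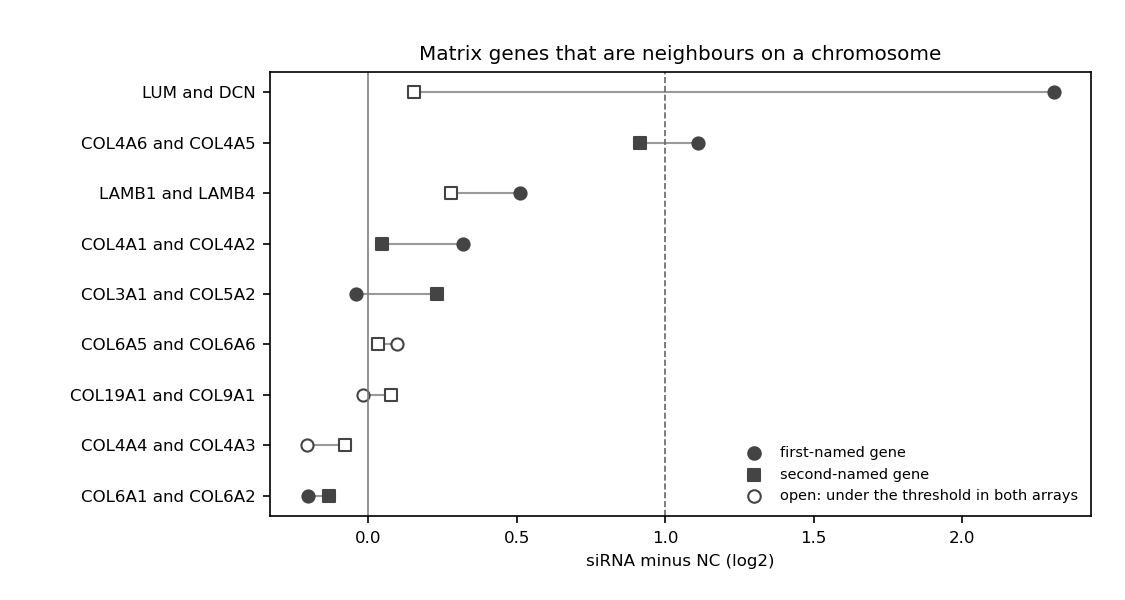
Difference (siRNA minus NC, log2) of the 9 pairs of members that are neighbours on a chromosome, with a circle for the gene named first and a square for the gene named second. Open symbols are genes under the detection threshold in both arrays, and the dashed line marks 2-fold. LUM lies to the right of the dashed line while DCN is undetected, and COL4A6 and COL4A5 lie on either side of that line. The position of COL4A6 uses its NC value as measured, which was under the threshold.

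Of 5 proteoglycans, 4 were detected, all 4 with a higher value in the siRNA array. As measured, 2 of them were at least 2-fold higher, and the median difference was 1.04. FMOD counted as detected only through the siRNA array, so it had to be higher. With lower values set to the detection threshold, the median was 0.82. After LUM came FMOD (fibromodulin), a collagen-binding relative of lumican, with 5.33 in the siRNA array and 4.21 in the NC array, at least 1.60-fold higher against the threshold. VCAN (versican), the large chondroitin sulfate proteoglycan of provisional matrix, had 8.65 against 7.69 in the NC array, 1.95-fold higher. BGN (biglycan), a small proteoglycan like decorin, had 5.92 against 5.33, a difference of 0.60.

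The fibulins, which join microfibrils, elastin and basement membranes, went both ways. EFEMP1 (fibulin 3) had 9.82 in the siRNA array and 8.95 in the NC array, 1.83-fold higher. FBLN5, which is needed for elastic fibre assembly, had 6.57 against 7.004 in the NC array, a difference of -0.43. EFEMP2 had 6.14 against 6.37 and FBLN1 had 7.01 against 7.18, differences of -0.24 and -0.17, and FBLN2 and FBLN7 were undetected. THBS1, the matricellular protein thrombospondin that activates latent TGF-beta, had 10.00 in the siRNA array and 9.44 in the NC array, a difference of 0.55. THBS4 differed by 0.18. LOX, the enzyme that cross-links collagen and elastin, had 7.74 against 7.59, a difference of 0.15. THBS3 had 4.56 against 3.97, and this difference of 0.59 was the largest among undetected members. THBS2, TNC, TNR and POSTN were also under the threshold in both arrays. TNXB had only probe sets shared with TNXA or ATF6B, so it is not among the 84. The brightest of these, shared with ATF6B, had 6.99 in the siRNA array and 6.69 in the NC array.

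The machinery that makes and matures collagen was examined in lists of other matrix genes. These lists were chosen with earlier results of these data known, so their values are described and nothing is read from the contrast with all genes. Of 18 measured collagen synthesis enzymes and chaperones, 17 were detected, 14 with a higher and 3 with a lower value, and their median difference was 0.52 against 0.00 over all detected genes. Past 2-fold lay 2 of these 17 on the higher side and 1 on the lower side. SERPINH1, the collagen chaperone HSP47, had 8.53 in the siRNA array and 6.89 in the NC array, 3.12-fold higher. P3H2, a prolyl 3-hydroxylase acting on basement membrane collagen, had 8.10 against 6.99, 2.16-fold higher. TMEM38B, a cation channel of the endoplasmic reticulum needed for collagen modification in bone, had 7.21 against 8.85, 3.11-fold lower. The lysyl hydroxylases did not go together, with PLOD1 at 0.69, PLOD3 at 0.57 and PLOD2 at -0.75. The prolyl 4-hydroxylase subunits were likewise mixed, with P4HB at 0.55, P4HA2 at 0.44 and P4HA1 at -0.40. Over all detected genes, 5666 had a higher value in the siRNA array, 5461 a lower one and 225 equal values.

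Of 15 measured genes of procollagen export and processing, 13 were detected with a median of 0.23, and 2 were at least 2-fold higher. ADAMTS3, a procollagen N-propeptidase, had 5.89 in the siRNA array and 4.45 in the NC array, at least 2.35-fold higher against the threshold. TLL1, a procollagen C-proteinase, had 7.18 against 6.09, 2.13-fold higher. Of 7 cross-linking enzymes, 4 were detected, none at least 2-fold different, with LOXL1 at 0.31, LOXL2 at 0.24, TGM2 at 0.11 and LOXL4 at -0.72. Among 13 detected partners of microfibrils and elastic fibres, the median was -0.02. LTBP1, which tethers latent TGF-beta to fibrillin microfibrils, had 7.09 against 5.94 and was the 1 member at least 2-fold higher (2.23-fold). ELN (elastin) and MFAP2, a microfibril protein, differed by -0.08 and -0.07.

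Among 16 detected other matrix glycoproteins, 3 were at least 2-fold higher and 1 lower, with a median of 0.10. NTN4 (netrin 4), which binds laminin in basement membranes, had 8.37 in the siRNA array and 6.12 in the NC array, 4.78-fold higher. CCN1 and CCN2, matricellular proteins, were 4.63-fold and 2.01-fold higher. NPNT (nephronectin), an integrin ligand of the basement membrane, had 7.13 against 8.27, 2.20-fold lower. FN1 (fibronectin) differed by 0.18. Among 15 detected other proteoglycans and hyaluronan genes, the median was 0.26 and 2 were at least 2-fold higher, EPYC and HAS2. HAS2, a hyaluronan synthase, had 6.25 against 4.83, 2.67-fold higher.

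The enzymes that build glycosaminoglycan chains showed no gene at least 2-fold different among 18 detected, with a median of 0.09. The widest differences were CHST3 at -0.84, B3GAT3 at 0.59, GLCE at -0.58 and HS6ST1 at -0.49. Among 9 detected matrix receptors the median was -0.07. ITGAV, the integrin chain that binds fibronectin and vitronectin, had 10.16 in the siRNA array and 9.09 in the NC array, 2.09-fold higher and the 1 receptor past that size. ITGA6, a laminin receptor chain, had 7.93 against 8.68, a difference of -0.75. Of the 9 detected receptors, 4 had a higher value in the siRNA array and 5 a lower one. Over the 8 lists together, 105 genes were detected, 11 at least 2-fold higher and 2 lower, beside 1.94% and 0.863% of all detected genes. Their median was 0.14, and it was 0.03 over all measured list genes without the detection filter. Nothing is read from these contrasts, because the lists were chosen with earlier results of these data known. ADAMTS3, EPYC, GPC4 and CCN3 counted as detected only through the siRNA array, so they had to be higher.

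**Figure D4:**
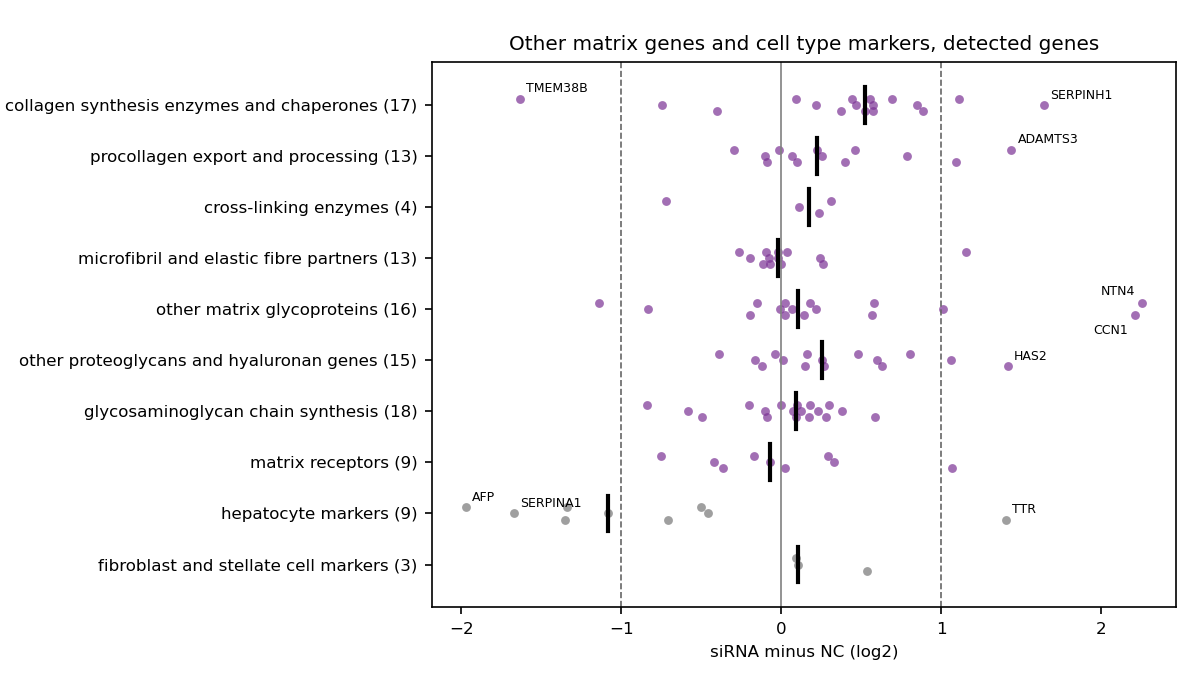
Difference (siRNA minus NC, log2) of detected genes in 8 lists of other matrix genes (purple) and 2 lists of cell type markers (grey), with 1 point per gene, the list median as a black bar and the number of detected genes in brackets. Dashed lines mark 2-fold. The collagen synthesis list has its median at 0.52, and the hepatocyte markers have theirs at -1.09.

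Several members are products of fibroblasts and stellate cells, so markers of other cell types were set beside them. The labels name only Huh-7 cells for both arrays, so these lists describe marker levels in 1 cultured line. In such a bulk sample, a different share of cells and a different amount of RNA per cell cannot be told apart. Of 12 fibroblast and stellate cell markers outside the set, 3 were detected and none was at least 2-fold different. S100A4, DES and PDGFRA differed by 0.54, 0.11 and 0.09, and the median of all 12 markers was 3.80 in the siRNA array and 3.65 in the NC array. Their summed linear level was 262 in the siRNA array and 242 in the NC array. PDGFRB, ACTA2, THY1, TAGLN, LRAT, RGS5, PDPN, FAP and DPT were under the threshold in both arrays. Of 10 endothelial markers, CLDN5 alone was detected, at 4.99 in the siRNA array and 5.18 in the NC array, while PECAM1, CDH5 and VWF were undetected. Of 7 macrophage and leukocyte markers, LYZ and CD14 were detected, with differences of 1.20 and 0.27, and PTPRC was undetected. LYZ had 6.05 in the siRNA array and 4.85 in the NC array, 2.30-fold higher. Of 5 cholangiocyte markers, KRT19, EPCAM and SOX9 were detected, with differences of 0.52, 0.10 and 0.09. The summed linear level of the 5 was 1447 in the siRNA array and 1253 in the NC array.

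The hepatocyte markers went the other way from the matrix genes with the largest differences. AFP (alpha-fetoprotein) had 8.92 in the siRNA array and 10.89 in the NC array, 3.92-fold lower. ALB (albumin) had 11.39 against 11.89, a difference of -0.50. TTR (transthyretin) was the exception, with 9.72 against 8.31, 2.65-fold higher. The part of these markers in the matrix differences was not tested.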

How the data were processed

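RNA was hybridised as biotinylated cRNA to Affymetrix arrays, per the labels' protocols. The tools named, per the submitters' processing notes, were Expression Console of Affymetrix and version 3.0 of Transcriptome Analysis Console. Their role, the background correction and the normalization are not given in the sources used here. The deposited table gives 1 value per array for 33297 probe sets with no unit. These lay between 1.39 and 12.75, with array medians of 4.64 (siRNA) and 4.67 (NC), so the deposited values were taken as log2 expression. Quantiles of the columns differed by at most 0.0997, and normalization by the authors was assumed.

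The platform annotation gave 1 gene for 19460 probe sets, and the brightest by mean of both arrays stood for each gene. Symbols of list genes were updated through RefSeq. The members and lists were chosen with earlier results of these data known. Named were all detected members, and from each other list the genes at least 2-fold different or else up to 4 with the largest differences. Other genes (PLOD1, PLOD2, PLOD3, P4HB, P4HA1, P4HA2, ELN, MFAP2, FN1, ITGA6, KERA), the further cell type markers and the COL4A6 and COL4A5 promoters were chosen after their values were seen. Background signal can compress differences of dim genes, and array number limits precision. Counting was checked on simulated data. Protein sequences were not used here. Python 3.11.15 and pandas 2.3.3 were used. Alternatives covered the filter, a floor, centring, an intensity trend (lowess, statsmodels 0.14.6), the probe set rule and the membership.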

Additional observations from a re-analysis of the deposited data

How the results depend on the processing

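No paired analysis was possible because each group had 1 array, and for the same reason no array could be left out. COL12A1, LUM, FBN1, FBN2 and COL1A2 stayed at least 2-fold higher under every alternative that was run on single genes, and no member was at least 2-fold lower under any of them. The count of 8 higher members became 5 when lower values were set to the detection threshold (the floor), and 5 with detection at the 75th percentile of all probe sets. With the floor, LAMA4 had a difference of 0.69, FMOD 0.68, COL4A6 0.995 and COL28A1 0.10. TNRC18 had -0.10 with its dimmest probe set. The median over members was 0.00 with detection at the 25th percentile and 0.53 at the 75th. The median of matrix glycoproteins was 0.00 without the filter and at the 25th percentile, and 0.55 at the 75th percentile. At the 75th percentile the collagens had a median of 0.65 and the proteoglycans 1.63, over fewer genes. With the floor the proteoglycan median was 0.82. Centring, trend removal, the other probe set rules, leaving out the 5 genes of no matrix protein and adding shared probe sets left all counts and medians within 1.5 times or within the pooled SD of 0.168. Medians thus depend on how many dim genes are admitted.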

Other observations

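Of 33297 probe sets, 1940 (5.83%) held exactly equal values in both arrays. They included 5 members: COL16A1, which was detected, and COL24A1, FBLN2, LAMB3 and TNC, which were not. Among detected genes, 225 (1.98%) had equal values. The cause was not tested, and for these genes, as for all others, replicate error was not measured.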
